A study of Homo sapiens with 6 samples.

Results

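The genes described here are 59 that build and control the mitotic spindle, out of 67140 gene identifiers measured by RNA sequencing in KYSE150, a line established from a human squamous cell carcinoma of the esophagus. They are the mitotic kinases and cyclins, the spindle checkpoint and kinetochore genes, the mitotic kinesins, the condensins and related genes of a list made by function. All 59 were found by symbol in the annotation (GENCODE v44, hg38) and all 59 passed the filter on low counts. The samples were 3 of cells carrying a control hairpin (shCtrl) and 3 of cells carrying a hairpin against the lncRNA AC007128.1 (shAC007128.1), all grown in RPMI medium with fetal bovine serum. The comparison asks which transcripts differ between the 2 kinds of cells. The group rests on 1 hairpin, and the study's methods describe lentivirus and selection with puromycin to make stable lines. The sources do not say whether the 3 samples of a group came from separate cultures, so the p-values measure only the spread between these samples, which may be technical.

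Mitosis is driven by CDK1 bound to the B-type cyclins, which triggers chromosome condensation and spindle assembly. Kinetochores, protein layers built on the centromere, then catch the spindle microtubules, and the spindle checkpoint holds back the anaphase-promoting complex (APC/C) until every chromosome is attached. Once the APC/C is active, with CDC20 as its partner, it marks securin and cyclin B for destruction, so that sister chromatids part and the cell divides. Transcripts of most of these genes are low in G1 and accumulate in G2 and mitosis. Their promoters are known for a short element named the cell cycle homology region, which is bound by the MuvB complexes, and for CCAAT boxes, which are bound by NF-Y. In a bulk sample, more cells in G2 and mitosis and more RNA of these genes per cell cannot be told apart.

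Promoter sequence was looked at because the list was made from protein function and used no sequence. Promoters of such genes are known for the homology region and CCAAT boxes, so a high share could be foreseen. The RefSeq table (GRCh38.p14) gives windows from 250 bases before to 50 bases after a transcript start, and it holds 66 windows for 51 of the 59 genes, some of them overlapping. The 8 genes with no entry were UBE2C, TTK, KNL1, BIRC5, TPX2, BUB3, FOXM1 and AURKA. Each window was searched for TTTGAA or TTTAAA, the core of the cell cycle homology region. CCAAT was searched in the same way. Both strands were read, so that TTTGAA on the other strand appears as TTCAAA. For the same reason a CCAAT box there appears as ATTGG. The 100 bases before the start are printed for the 6 genes with the smallest p among those with 1 listed start and the first element inside that stretch. MYBL2 and CDC20, the largest rise and the smallest rise with an entry, are printed after them and were chosen after their values were seen. Capitals mark the 2 elements, and each line runs 5′ to 3′ and ends at the base before the start:
CDCA8: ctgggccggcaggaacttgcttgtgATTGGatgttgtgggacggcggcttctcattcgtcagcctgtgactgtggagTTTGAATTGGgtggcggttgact
KIF20A: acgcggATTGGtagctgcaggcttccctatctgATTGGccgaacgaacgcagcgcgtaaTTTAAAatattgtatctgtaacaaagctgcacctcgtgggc
PLK1: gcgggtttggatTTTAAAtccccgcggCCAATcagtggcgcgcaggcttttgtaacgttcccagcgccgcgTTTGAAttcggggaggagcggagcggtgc
KIF4A: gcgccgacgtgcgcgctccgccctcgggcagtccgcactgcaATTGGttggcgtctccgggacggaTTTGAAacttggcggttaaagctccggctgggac
KIF11: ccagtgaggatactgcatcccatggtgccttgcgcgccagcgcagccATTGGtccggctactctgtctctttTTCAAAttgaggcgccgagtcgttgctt
ESPL1: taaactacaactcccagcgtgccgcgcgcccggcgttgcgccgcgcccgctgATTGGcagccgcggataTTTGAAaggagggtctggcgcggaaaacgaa
MYBL2: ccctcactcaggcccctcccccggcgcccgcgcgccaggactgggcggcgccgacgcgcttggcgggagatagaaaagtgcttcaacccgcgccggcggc
CDC20: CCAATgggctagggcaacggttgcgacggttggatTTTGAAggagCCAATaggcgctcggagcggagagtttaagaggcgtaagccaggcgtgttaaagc

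On GRCh38.p14 these stretches are chr1:37692416-37692515 (plus strand) for CDCA8, chr5:138179012-138179111 (plus strand) for KIF20A, chr16:23678789-23678888 (plus strand) for PLK1 and chrX:70290004-70290103 (plus strand) for KIF4A. Those of the others are chr10:92593030-92593129 (plus strand) for KIF11, chr12:53268199-53268298 (plus strand) for ESPL1, chr20:43667014-43667113 (plus strand) for MYBL2 and chr1:43358881-43358980 (plus strand) for CDC20. In CDCA8 the homology element begins 23 bases before the start and shares bases with the second CCAAT box. It begins 41 bases before the start in KIF20A, 34 in KIF4A, 28 in KIF11 and 31 in ESPL1, and PLK1 holds 1 at 88 and 1 at 29. In all 6 a CCAAT box lies upstream of the element nearest the start. The MYBL2 stretch holds neither run of letters, while that of CDC20 holds the element at 65 bases and 2 CCAAT boxes.

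Over the whole window, 47 of the 66 promoters (71.2%) held TTTGAA or TTTAAA, against 24% of all 35116 promoters in the table. TTTGAA alone was in 59.1% of the windows, against 15.2% of all promoters. CCAAT was in 45 of the 66 (68.2%), against 34.6%, and both elements were in 51.5%, against 9.27%. The homology elements were most frequent just before the start. Of the 66 windows, 15 (22.7%) held one that began 26 to 50 bases before it and 14 (21.2%) held one 1 to 25 bases before it, where 3.08% and 1.87% of all promoters did. Counted by gene, 43 of 51 (84.3%) held the homology element, against 21.5% of the 11984 tested genes with a promoter and a symbol of their own. By the same count it was in 2 of 2 condensin II genes, 4 of 7 mitotic entry inhibitors and exit phosphatases, 5 of 10 DREAM and MuvB genes and 5 of 11 outer kinetochore genes outside the 59. It was in 4 of 13 inner kinetochore genes, 5 of 17 APC/C genes, 5 of 18 gamma-tubulin, augmin and centriole genes, 2 of 10 cohesin genes, 4 of 20 G1/S genes and 2 of 15 transport kinesins. Also by gene, CCAAT was in 78.4% of the 51, 42.2% of the tested genes and 70% of those G1/S genes. Over the other lists it ran from 20% in the transport kinesins to 71.4% in the mitotic entry inhibitors and exit phosphatases. A match is a run of letters and no evidence of binding, and no match says only that these letters are not in the window.

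**Figure D1:**
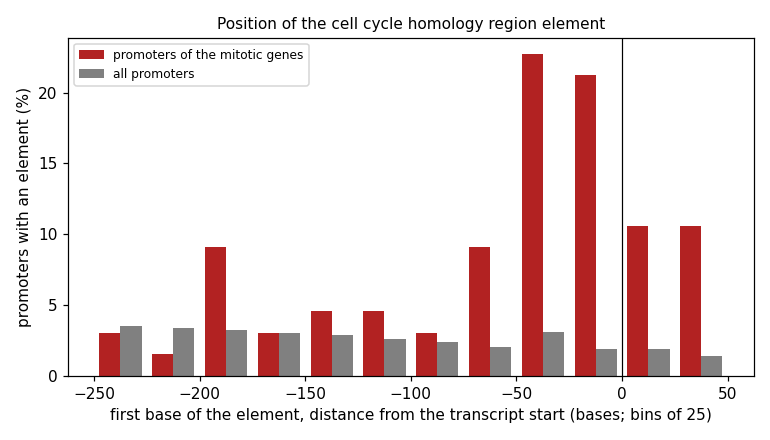
Percent of promoters (vertical axis) with TTTGAA or TTTAAA on either strand, by the distance of its first base from the transcript start in bins of 25 bases, for the 66 windows of the mitotic genes (red) and all 35116 promoters (grey). The tallest red bars, 22.7% and 21.2%, are the bins nearest upstream of the start, where grey stands at 3.08% and 1.87%.

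The deposited counts totalled 65140326 to 78610457 in shCtrl and 55764405 to 60158244 in shAC007128.1, and 3 counts correspond to 0.0382 to 0.0538 CPM (counts scaled to library size), a level all 59 genes exceeded by far. Values below are CPM with TMM factors, always in the order of replicates 1, 2 and 3. Fold changes are shAC007128.1 over shCtrl on the log2 scale from edgeR's quasi-likelihood test, with p adjusted by Benjamini-Hochberg over the 19254 genes tested. Genes count as called where the adjusted p was no more than 0.05 and the fold 2 or more. The targeted gene, AC007128.1 (ENSG00000229970, chromosome 7, 8262264 to 8344516, plus strand), was at 0.943, 0.410 and 0.781 CPM in shCtrl and 0.320, 0.674 and 0.258 CPM in shAC007128.1. Its groups overlapped, and the log2 change between them was -0.77 (standard error 0.51, adjusted p = 0.271), so a reduction was not detected at this depth. By qPCR, a different measure, the study reports that the hairpin lowered AC007128.1 RNA. Mitochondrial genes took 9.69% to 10.2% of the counts in shCtrl, 7.80% and 7.68% in shAC007128.1 replicates 1 and 2, and 9.72% in replicate 3. Of the squamous markers, KRT5 was at 607, 588 and 561 CPM in shCtrl and 1225, 1072 and 913 CPM in shAC007128.1, and 3 of 9 were called higher (KRT14, KRT6A and SOX2) and 1 lower (DSG3), with a summed level of 1852 to 1890 CPM in shCtrl and 2647 to 3191 in shAC007128.1. Summed fibroblast markers were at 15.3 to 16.2 and 20.9 to 23.9 CPM, with COL1A1 the highest and COL1A2 at 0 in 5 samples, and of the 3 tested LUM was called higher and PDGFRB lower. Summed immune markers stayed at or under 1.29 CPM in every sample, and endothelial markers at or under 3.11. The part of the mitochondrial share and of these markers in the results below was not tested.

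Transcripts of the mitotic genes were higher in shAC007128.1 cells. Of the 59 genes, 46 were called higher and 0 lower, where 5.57% of all genes tested were called higher and 10.1% lower. DESeq2 and limma-voom also called 46 higher and 0 lower, and 0 were lower at an unadjusted edgeR p under 0.05. The share of all genes under that unadjusted limit was not counted. By the adjusted p alone 58 of 59 were higher, where 21.0% of all genes were higher and 19.8% lower, and the exception was the checkpoint gene BUB3. With 1 sample left out, 56 to 58 were higher by this rule, and the genes that lost it were CDC20, CENPA and NUSAP1. In the same 58 genes every shAC007128.1 sample lay above every shCtrl sample, which 27.0% of all genes did. The median log2 fold change was 1.24 (interquartile range 1.04 to 1.43), beside -0.02 over all genes, and values ran from 0.09 for BUB3 to 2.24 for MYBL2 and 2.24 for SPC25. Summed over the list, the level was 4079, 4060 and 3998 CPM in shCtrl and 9189, 9256 and 10319.7 CPM in shAC007128.1, 2.37 times the shCtrl level. The 13 genes that were not called were AURKB, TTK, BUB3, CDC20, UBE2C, PTTG1, NDC80, CENPA, KIF2C, KIF14, KIF15, HMMR and NUSAP1. The list median moved from 1.16 without shAC007128.1 replicate 3 to 1.27 without replicate 2, and the calls from 41 without replicate 3 to 50 without replicate 1.

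**Figure D2:**
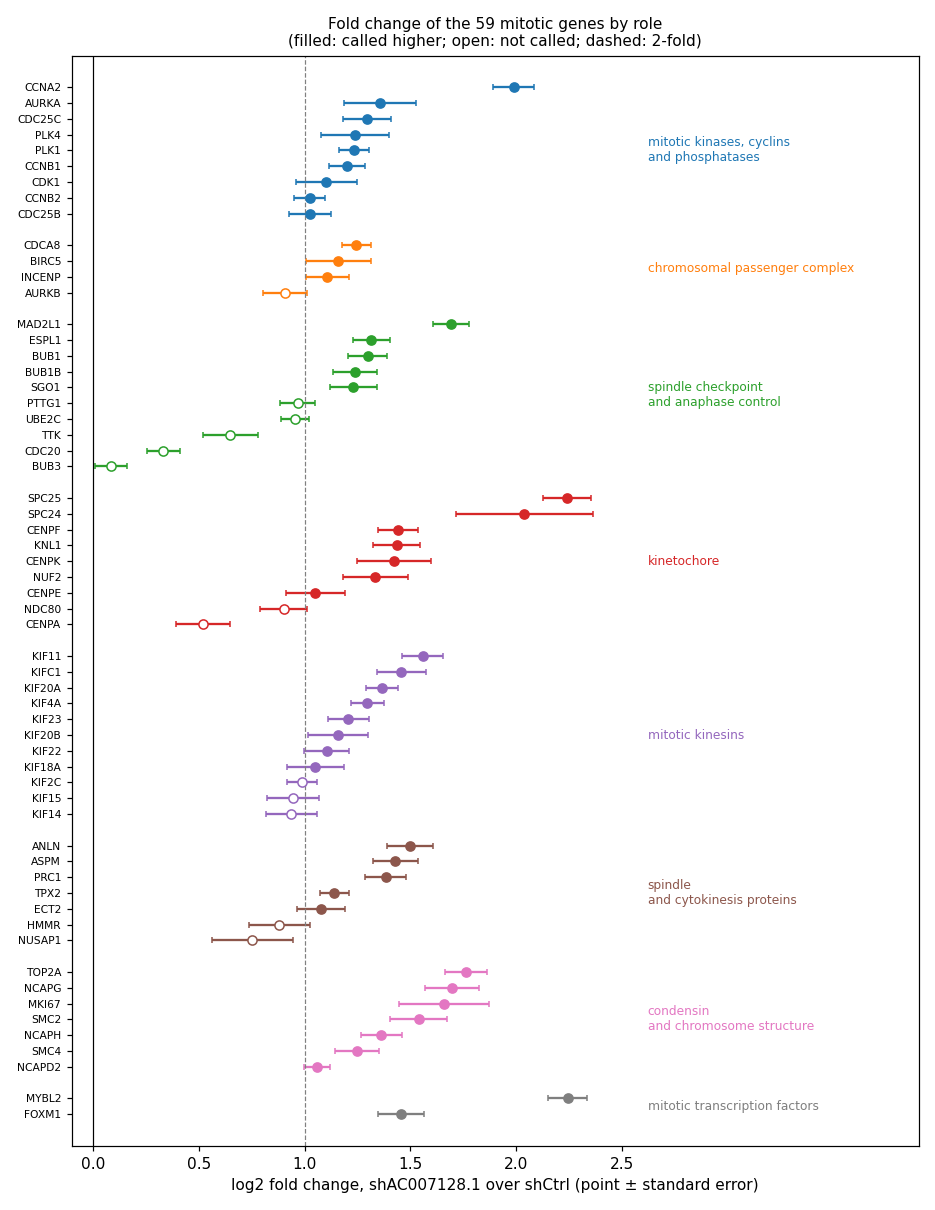
Log2 fold change (horizontal axis, shAC007128.1 over shCtrl) of each of the 59 genes, grouped by role, with points for the fitted value and bars for its standard error, filled where the gene was called higher. All 59 points lie right of 0, from 0.09 for BUB3 to 2.24 for MYBL2 and SPC25, and the 13 open points lie left of the dashed 2-fold line.

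The shCtrl samples lay close together and the shAC007128.1 samples further apart. The median coefficient of variation over the 59 genes was 4.30% in shCtrl and 10.8% in shAC007128.1, beside 5.43% and 11.2% over the 11205 genes with a mean of at least 5 CPM. In shAC007128.1 replicate 3, 43 of the 59 genes were above their group mean, by a median of 0.12 on the log2 scale, while in replicates 1 and 2 only 18 and 17 were. The other 16 were below it, among them SPC24, MKI67, KIFC1, KIF22, CENPA and BIRC5. Levels per length in shCtrl ran from 2.64 CPM per kilobase of exon for BIRC5 to 89.0 for CDC20, with a median of 10.3. Over the 59 genes, Spearman's rho between log2 fold change and this level was -0.26, and 0.18 with exon length. These are descriptions across genes of the same 6 libraries, and genes are not independent replicates.

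**Figure D3:**
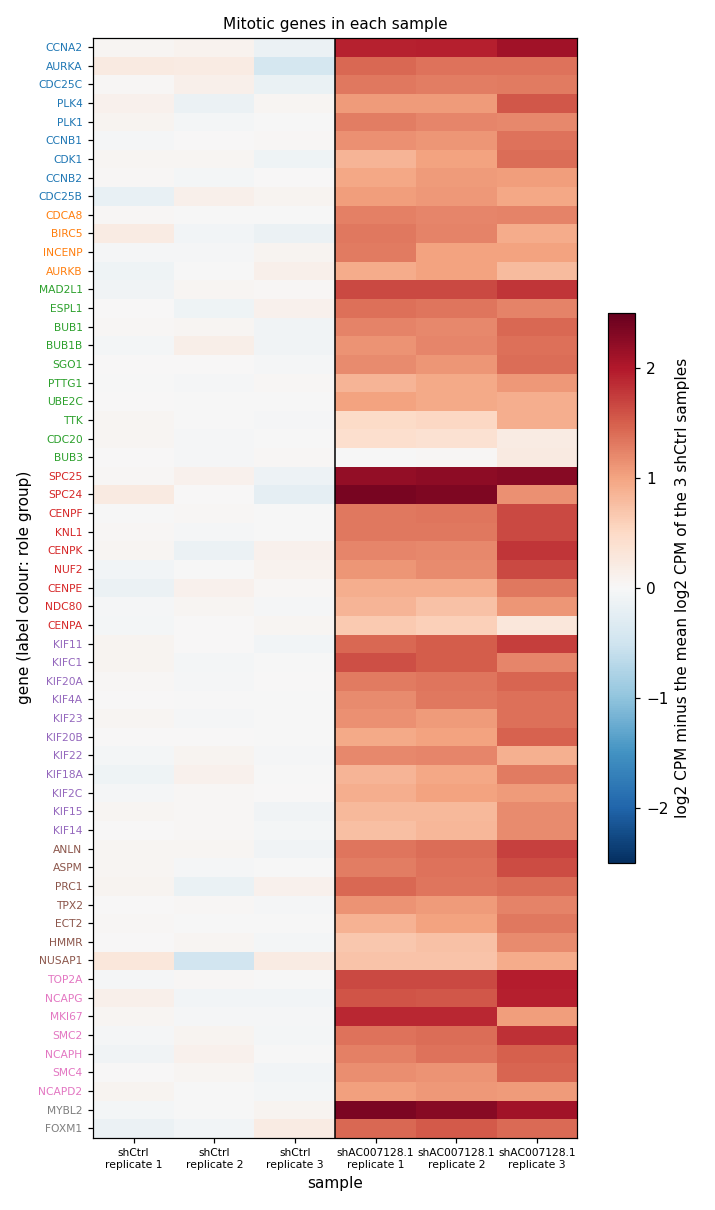
Each row is a gene, with its label coloured by role, and each column a sample. Colour is log2 CPM minus the mean log2 CPM of the 3 shCtrl samples (scale at right). The shAC007128.1 columns are red in nearly every row, BUB3 is the palest, and in replicate 3 MKI67 and SPC24 are paler than in replicates 1 and 2.

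All 9 mitotic kinases, cyclins and phosphatases were called higher, with a median log2 fold change of 1.23 and a summed level 2.43 times that in shCtrl. Beside this and the role groups below, 5.57% of all genes tested were called higher and 21.0% were higher by the adjusted p. In 27.0% of all genes every shAC007128.1 sample lay above every shCtrl sample. CCNA2 (ENSG00000145386, chromosome 4, 121816444 to 121823883, minus strand), which encodes cyclin A2, the partner of CDK2 and CDK1 in S phase and G2, was at 46.5, 47.8 and 40.2 CPM in shCtrl and 170.4, 172 and 191 CPM in shAC007128.1. The groups stood far apart, and they differed by 1.99 (standard error 0.10, adjusted p = 2.54e-05) on the log2 scale, the largest and the best supported of the group. CDK1, the kinase that drives entry into mitosis, was at 57.5, 57.3 and 51.6 CPM in shCtrl and 100.1, 111 and 146 CPM in shAC007128.1, with a log2 fold change of 1.10 (standard error 0.15, adjusted p = 0.000991). Its shAC007128.1 samples were all above the shCtrl samples but spread widely, and without replicate 3 the log2 fold change was 0.92, under the 2-fold limit. CCNB1 (cyclin B1), which activates CDK1, was at 103, 107 and 108 CPM in shCtrl and 234, 227 and 269.8 CPM in shAC007128.1, and it rose by 1.20 (standard error 0.08, adjusted p = 7.82e-05) on the log2 scale. CCNB2 (cyclin B2), its relative that sits at the Golgi, was at 55.4, 52.5 and 54.9 CPM in shCtrl and 105, 114 and 112 CPM in shAC007128.1, with a log2 fold change of 1.03 (standard error 0.07, adjusted p = 8.27e-05). Neither cyclin's groups overlapped. CCNB2 was just over the limit, and its log2 fold change was 0.95 when scaled by library size only, 0.98 without a filter, 0.99 with a minimum of 10 counts per sample and 0.998 without shCtrl replicate 2.

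CDC25B and CDC25C encode phosphatases that take the inhibitory phosphates off CDK1. CDC25B was at 49.1, 60.7 and 58.1 CPM in shCtrl and 116, 118 and 108 CPM in shAC007128.1, with a log2 fold change of 1.02 (standard error 0.10, adjusted p = 0.000273), the smallest of the group. CDC25C was at 10.7, 11.4 and 9.35 CPM in shCtrl and 26.0, 25.2 and 25.8 CPM in shAC007128.1, with a log2 fold change of 1.30 (standard error 0.11, adjusted p = 0.000166). The groups were separate for both. CDC25B fell under the limit with library size only (0.95), without a filter (0.98), with a minimum of 10 counts per sample (0.99) and without shCtrl replicate 1 (0.93). PLK1 (ENSG00000166851, chromosome 16, 23677656 to 23690367, plus strand), the Polo kinase of centrosome maturation and cytokinesis, was at 57.1, 52.9 and 54.3 CPM in shCtrl and 132, 128 and 127 CPM in shAC007128.1, and it rose by 1.23 (standard error 0.07, adjusted p = 4.13e-05) on the log2 scale. PLK4, the kinase that starts centriole duplication, was at 16.3, 13.6 and 15.6 CPM in shCtrl and 31.6, 31.5 and 44.3 CPM in shAC007128.1, with a log2 fold change of 1.24 (standard error 0.16, adjusted p = 0.000952). Replicate 3 was the highest shAC007128.1 sample for PLK4 and the lowest for PLK1. AURKA (Aurora A), the kinase of centrosomes and spindle poles, was at 87.6, 87.0 and 55.6 CPM in shCtrl and 204, 192 and 194 CPM in shAC007128.1. Here shCtrl replicate 3 stood below the other 2 controls, so the log2 fold change of 1.36 (standard error 0.17, adjusted p = 0.000841) was 1.17 without it, still called higher.

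The chromosomal passenger complex corrects faulty attachments and later organizes the midzone, with Aurora B as its kinase. Of its 4 genes 3 were called higher and all 4 were higher by the adjusted p, against 5.57% and 21.0% of all genes tested. Their median log2 fold change was 1.13. CDCA8 (ENSG00000134690, chromosome 1, 37692481 to 37709719, plus strand), the Borealin subunit, was at 48.5, 47.2 and 47.0 CPM in shCtrl and 114, 111 and 113 CPM in shAC007128.1. Both groups were tight and far apart, and its log2 fold change of 1.24 (standard error 0.07, adjusted p = 3.61e-05) was the largest and the one with the smallest p in the group. AURKB, the kinase, was at 25.1, 26.9 and 29.7 CPM in shCtrl and 51.8, 54.4 and 46.9 CPM in shAC007128.1, separate but under the 2-fold limit at a log2 fold change of 0.91 (standard error 0.10, adjusted p = 0.000515). The scaffold INCENP went from 56.1 ± 2.17 to 121 ± 14.3 CPM (SD, n = 3), a log2 fold change of 1.11. BIRC5 (survivin), which targets the complex to centromeres, went from 10.1 ± 1.34 to 22.5 ± 3.12 CPM (SD, n = 3), a log2 fold change of 1.16, and was the least abundant of the 59 per length in shCtrl.

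The 10 genes of the spindle checkpoint and of anaphase control had the smallest share of calls among the role groups. Of these 5 were called higher and 9 were higher by the adjusted p, against 5.57% and 21.0% of all genes tested. Their log2 fold changes ran from 0.09 to 1.69 with a median of 1.10. MAD2L1 (ENSG00000164109, chromosome 4, 120055623 to 120066858, minus strand), which encodes MAD2, the protein that sequesters CDC20 at unattached kinetochores, was at 31.9, 35.2 and 34.4 CPM in shCtrl and 105, 105 and 117 CPM in shAC007128.1. It had the largest log2 fold change and the smallest p of the 10, 1.69 (standard error 0.08, adjusted p = 2.92e-05). The checkpoint kinase BUB1 was at 66.3, 67.5 and 61.5 CPM in shCtrl and 154, 149 and 177 CPM in shAC007128.1, with a log2 fold change of 1.30 (standard error 0.09, adjusted p = 7.74e-05), and its groups were separate. BUB3, the WD40 protein that brings BUB1 and BUBR1 to the kinetochore, was at 188, 183 and 189.9 CPM in shCtrl and 186, 192 and 217 CPM in shAC007128.1. Its groups overlapped, and at a log2 fold change of 0.09 (standard error 0.08, adjusted p = 0.419) a change was not detected. TTK (MPS1), the kinase at the top of the checkpoint, was at 31.8, 30.2 and 29.9 CPM in shCtrl and 42.7, 43.98 and 57.6 CPM in shAC007128.1, separate but at a log2 fold change of 0.65 (standard error 0.13, adjusted p = 0.00632). BUB1B, which encodes BUBR1 and shares 5.38% of its exonic bases with PAK6, had a log2 fold change of 1.24, and SGO1 (shugoshin), the protector of centromeric cohesion, which shares 15.8% with SGO1-AS1 on the opposite strand, had a log2 fold change of 1.23.

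CDC20 (ENSG00000117399, chromosome 1, 43358981 to 43363203, plus strand) is at once the target of the checkpoint and the activator of the APC/C, and it was the most abundant of the 59 genes per length in shCtrl. Its levels were 185, 174 and 178 CPM in shCtrl and 239, 232 and 205 CPM in shAC007128.1. The groups did not overlap, but the difference was only 1.26-fold, a log2 fold change of 0.33 (standard error 0.08, adjusted p = 0.0125). The adjusted p was 0.06 without shCtrl replicate 2 (log2 fold change 0.31) and 0.0525 without shCtrl replicate 3 (0.32). UBE2C, the ubiquitin-conjugating enzyme of the APC/C and the next most abundant per length, was at 85.2, 84.2 and 83.7 CPM in shCtrl and 169, 163 and 158 CPM in shAC007128.1, with a log2 fold change of 0.95 (standard error 0.07, adjusted p = 7.08e-05). PTTG1 (securin), which holds separase in check, was at 71.5, 71.0 and 74.1 CPM in shCtrl and 131, 139 and 153 CPM in shAC007128.1, with a log2 fold change of 0.97 (standard error 0.08, adjusted p = 0.000154). Both rose in every sample and stayed just under 2-fold, and PTTG1 had a log2 fold change of 1.02 without shAC007128.1 replicate 1. ESPL1, which encodes separase, the protease that cuts cohesin, was called higher at a log2 fold change of 1.32, from 41.5 ± 3.09 to 103 ± 5.08 CPM (SD, n = 3).

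Of the 9 kinetochore genes 7 were called higher and all 9 were higher by the adjusted p, against 5.57% and 21.0% of all genes tested. Their median log2 fold change was 1.42 and their summed level 2.63 times that in shCtrl. The 4 subunits of the NDC80 complex, the rod that grips the microtubule, had log2 fold changes from 0.90 to 2.24. SPC25 (ENSG00000152253, chromosome 2, 168834132 to 168913371, minus strand) was at 5.93, 6.23 and 5.28 CPM in shCtrl and 26.7, 27.5 and 28.2 CPM in shAC007128.1, and its log2 fold change of 2.24 (standard error 0.11, adjusted p = 2.96e-05) was the largest and had the smallest p of the kinetochore genes. SPC24, its dimer partner, was at 10.2, 8.84 and 7.50 CPM in shCtrl and 45.5, 44.2 and 19.3 CPM in shAC007128.1, with a log2 fold change of 2.04 (standard error 0.32, adjusted p = 0.00233). The 3 shAC007128.1 samples of SPC24 disagreed, replicate 3 lying well under the other 2, and the log2 fold change was 2.33 without it. NUF2 had a log2 fold change of 1.33, and NDC80, with which it pairs to bind microtubules, was at 34.0, 36.1 and 34.2 CPM in shCtrl and 62.7, 57.5 and 74.6 CPM in shAC007128.1. NDC80 was separate but not called, at a log2 fold change of 0.90 (standard error 0.11, adjusted p = 0.000764). The differences between the 4 subunits were not tested.

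CENPA, the histone H3 variant that marks the centromere, had the smallest log2 fold change of the kinetochore genes, at 15.4, 16.0 and 16.5 CPM in shCtrl and 25.2, 24.1 and 19.3 CPM in shAC007128.1. Its groups came close without overlapping, and they differed by 0.52 (standard error 0.13, adjusted p = 0.0145) on the log2 scale. The adjusted p was 0.0592 without shCtrl replicate 1 (log2 fold change 0.49) and 0.0509 without shCtrl replicate 2 (0.52). KNL1, the scaffold that recruits BUB1, had a log2 fold change of 1.44, and CENPF, a large protein of the outer corona, had a log2 fold change of 1.44. CENPF was the member with the most counts, going from 511 ± 7.04 to 1388 ± 183 CPM (SD, n = 3). CENPK of the inner kinetochore had a log2 fold change of 1.42. CENPE, the kinetochore motor that carries chromosomes to the plate, had a log2 fold change of 1.05 and was under the limit with library size only (0.97), without shCtrl replicate 1 (0.98) and without shAC007128.1 replicate 3 (0.89).

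Mitotic kinesins are the motors that build the spindle, move the chromosomes and finish cytokinesis. Of the 11, 8 were called higher and all 11 were higher by the adjusted p, against 5.57% and 21.0% of all genes tested. Their log2 fold changes had a median of 1.16 and a range of 0.94 to 1.56. KIF11 (ENSG00000138160, chromosome 10, 92574105 to 92655395, plus strand), the Eg5 motor that pushes spindle poles apart, was at 57.3, 55.4 and 52.3 CPM in shCtrl and 148, 156 and 181 CPM in shAC007128.1, and it rose by 1.56 (standard error 0.10, adjusted p = 4.9e-05) on the log2 scale, the largest of the motors. KIF20A, which carries the passenger complex to the midzone, was at 51.2, 48.8 and 50.3 CPM in shCtrl and 123, 127 and 137 CPM in shAC007128.1 and had the smallest p, with a log2 fold change of 1.37 (standard error 0.08, adjusted p = 3.78e-05). Its relative KIF20B was at 50.7, 50.6 and 49.7 CPM in shCtrl and 96.8, 101 and 139 CPM in shAC007128.1, with a log2 fold change of 1.16 (standard error 0.14, adjusted p = 0.000736). No motor's groups overlapped, while in 27.0% of all genes tested every shAC007128.1 sample lay above every shCtrl sample. KIF2C (MCAK), which depolymerizes microtubules at centromeres, was at 74.7, 76.9 and 75.9 CPM in shCtrl and 142, 152 and 158 CPM in shAC007128.1, a 1.98-fold difference that fell just short of a call (adjusted p = 8.51e-05). KIF14, a motor of the midbody, was at 39.0, 39.3 and 37.2 CPM in shCtrl and 65.2, 68.8 and 87.3 CPM in shAC007128.1, with a log2 fold change of 0.94 (standard error 0.12, adjusted p = 0.000923). KIF15, which can stand in for KIF11, was at 32.9, 32.8 and 30.1 CPM in shCtrl and 56.2, 55.6 and 72.5 CPM in shAC007128.1, with a log2 fold change of 0.94 (standard error 0.12, adjusted p = 0.000952).

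These 3 uncalled motors and 2 of the called ones lay so near 2-fold that single libraries decided the call. Without shAC007128.1 replicate 1, KIF2C had a log2 fold change of 1.03, KIF14 1.02 and KIF15 1.004, and without replicate 2 KIF15 had 1.01. Without replicate 3, KIF20B had a log2 fold change of 0.97 and KIF18A, which damps chromosome oscillation, 0.90 in place of 1.05. KIF18A also fell to 0.97 with library size only and to 0.998 without shCtrl replicate 1. Among the other called motors, the minus-end motor KIFC1 had a log2 fold change of 1.46, the chromokinesins KIF4A and KIF22 had a log2 fold change of 1.30 and 1.10, and KIF23, the motor subunit of centralspindlin, had a log2 fold change of 1.21.

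Of the 7 spindle and cytokinesis genes 5 were called higher and all 7 were higher by the adjusted p, against 5.57% and 21.0% of all genes tested. Their median log2 fold change was 1.14. ANLN (ENSG00000011426, chromosome 7, 36389821 to 36453791, plus strand), anillin, which scaffolds the contractile ring, was at 188, 188 and 171 CPM in shCtrl and 462, 482 and 598 CPM in shAC007128.1 and had the largest log2 fold change, 1.497 (standard error 0.11, adjusted p = 8.52e-05). TPX2, the activator of Aurora A on spindle microtubules, was at 226, 228 and 219 CPM in shCtrl and 485, 469 and 529 CPM in shAC007128.1 and had the smallest p, with a log2 fold change of 1.14 (standard error 0.07, adjusted p = 4.47e-05). Neither gene's groups overlapped. HMMR, a spindle pole protein that is also a hyaluronan receptor, was at 49.0, 50.3 and 46.9 CPM in shCtrl and 77.5, 80.5 and 111 CPM in shAC007128.1, with a log2 fold change of 0.88 (standard error 0.14, adjusted p = 0.00265). NUSAP1, which bundles microtubules, was at 74.3, 44.1 and 70.4 CPM in shCtrl and 101, 101 and 116 CPM in shAC007128.1, with a log2 fold change of 0.75 (standard error 0.19, adjusted p = 0.0173), the smallest of the group. Its second shCtrl sample lay below the other 2. The log2 fold change was 0.55 without it, and without shAC007128.1 replicate 3 it was 0.67 (adjusted p = 0.0541), past the limit on p. Its counts are uncertain because 81.4% of its exonic bases are shared with ENSG00000285920 on the same strand. The midzone bundler PRC1 had a log2 fold change of 1.38, and its counts are uncertain too. It shares 57.6% of its exonic bases with ENSG00000284946 on the same strand and 34.3% with PRC1-AS1 on the opposite strand. The spindle pole gene ASPM had a log2 fold change of 1.43. ECT2, which activates RhoA for furrowing, had a log2 fold change of 1.08, and 0.94 without shAC007128.1 replicate 3.

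All 7 condensin and chromosome structure genes were called higher, against 5.57% of all genes tested. Their median log2 fold change was 1.54 and their summed level 2.78 times that in shCtrl. TOP2A (ENSG00000131747, chromosome 17, 40388525 to 40417896, minus strand), topoisomerase II alpha, which untangles sister chromatids, was at 176, 183 and 179 CPM in shCtrl and 562, 562 and 702 CPM in shAC007128.1. Its log2 fold change of 1.76 (standard error 0.10, adjusted p = 3.78e-05) was the largest of the group and had the smallest p, and the groups were separate. SMC2 and SMC4 form the condensin core. SMC2 was at 63.0, 68.1 and 62.9 CPM in shCtrl and 165, 169.7 and 229 CPM in shAC007128.1, with a log2 fold change of 1.54 (standard error 0.13, adjusted p = 0.000173). SMC4, which shares 19% of its exonic bases with TRIM59 on the other strand, was at 85.6, 88.1 and 81.2 CPM in shCtrl and 189.6, 184 and 231 CPM in shAC007128.1, with a log2 fold change of 1.25 (standard error 0.10, adjusted p = 0.000142). The regulatory subunits of condensin I were NCAPG (log2 fold change 1.70, from 29.1 ± 2.30 to 94.4 ± 14.8 CPM; SD, n = 3), NCAPH (1.36) and NCAPD2, which was at 189, 179 and 176 CPM in shCtrl and 367, 385 and 382 CPM in shAC007128.1. NCAPD2 had the smallest log2 fold change of the 7, 1.06 (standard error 0.06, adjusted p = 4.28e-05), and 0.98 with library size only. NCAPG shares 33.7% of its exonic bases with LCORL on the opposite strand, and whether strand was used in counting is not stated. MKI67 (Ki-67), which coats mitotic chromosomes, was at 98.4, 93.3 and 93.7 CPM in shCtrl and 352, 350.1 and 197 CPM in shAC007128.1, where replicate 3 was much lower than the other 2, and its log2 fold change of 1.66 (standard error 0.21, adjusted p = 0.000894) was 1.88 without that sample.

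Both transcription factors of the list were called higher, as were 5.57% of all genes tested. MYBL2 (ENSG00000101057, chromosome 20, 43667019 to 43716495, plus strand), B-MYB, which joins MuvB to switch on G2 and mitotic genes, was at 37.0, 38.0 and 40.6 CPM in shCtrl and 196, 186 and 165 CPM in shAC007128.1. The groups differed by 2.24 (standard error 0.09, adjusted p = 1.6e-05) on the log2 scale, the largest of the 59 and the one with the smallest p, in groups that did not approach each other. FOXM1, which follows B-MYB at the same promoters, was at 31.8, 33.8 and 40.6 CPM in shCtrl and 95.3, 102 and 93.7 CPM in shAC007128.1, with a log2 fold change of 1.45 (standard error 0.11, adjusted p = 9.8e-05). Its groups were separate too, and it shares 15.9% of its exonic bases with ITFG2 on the opposite strand.

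Whether related genes moved by the same amount was asked of 8 pairs through the log2 ratio of their levels in each sample, with a two-sided exact permutation test, for which 3 samples against 3 allow no p under 0.1. BUB1 over BUB3 had log2 ratios of -1.501, -1.442 and -1.626 in shCtrl and -0.27, -0.37 and -0.29 in shAC007128.1, a difference of 1.21 (exact permutation p = 0.1, adjusted over the 8 pairs 0.2). NCAPG over NCAPD2 differed by 0.63, AURKA over AURKB by 0.48 and SMC2 over SMC4 by 0.28, each with the same exact permutation p of 0.1, adjusted 0.2. In these 4 pairs the samples of the groups did not overlap, and with a smallest possible p of 0.1 no adjusted p could reach 0.05. The AURKA and AURKB difference rested on the low AURKA level of shCtrl replicate 3 and was 0.20 without it. The ratio differed by 0.17 for CCNB1 over CCNB2 and by -0.27 for CDC25B over CDC25C (exact permutation p = 0.2 for both, adjusted 0.267), and by 0.22 for KIF20A over KIF20B (exact permutation p = 0.3, adjusted 0.343). PLK1 over PLK4 differed by 0.01 (exact permutation p = 1, adjusted 1), with 1 shAC007128.1 sample below and 2 above all controls. In this last group of 4 pairs the samples overlapped, and a difference was not detectable with 3 samples a group.

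**Figure D4:**
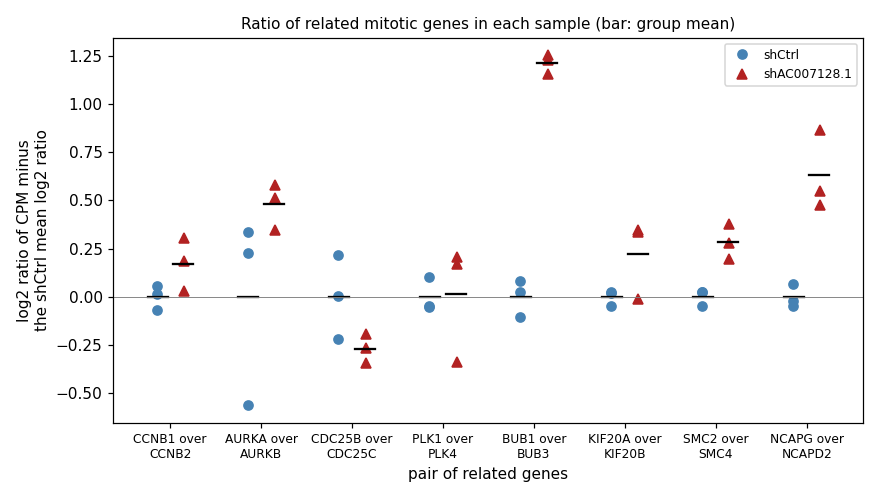
Log2 ratio of CPM of 8 pairs of related genes in each sample, with the shCtrl mean of each pair set to 0 (circles shCtrl, triangles shAC007128.1, bars group means). BUB1 over BUB3 shows the widest gap, 1.21, and the AURKA over AURKB controls include a low point, shCtrl replicate 3.

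Other genes of mitosis and the cell cycle were compared by lists made from their function. Beside their counts, 5.57% of all genes tested were called higher and 21.0% were higher by the adjusted p. Among the inner kinetochore genes outside the 59, 10 of 18 were called higher, 16 were higher by the adjusted p and the median log2 fold change was 1.05. Those with the smallest p, with their log2 fold changes, were CENPW (1.65), CENPI (2.39) and OIP5 (1.21). Of 12 outer kinetochore genes 7 were called higher, with a median of 1.03. The 3 with the smallest p were PMF1 (1.34) and DSN1 (1.05) of the MIS12 complex, and ZWINT (1.65), a KNL1 partner. Against these, MIS12 itself, named after its values were seen, went from 54.2 ± 10.1 to 32.9 ± 3.80 CPM (SD, n = 3), a log2 fold change of -0.72 (standard error 0.16, adjusted p = 0.00943). Of the 3 condensin II subunits, NCAPD3 (1.57) and NCAPG2 (1.15) were called higher, while NCAPH2 had a log2 fold change of 0.83.

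The lists of the machinery that these mitotic proteins act on or through had smaller medians. Over all genes tested, 5.57% were called higher and 10.1% lower, and by the adjusted p 21.0% were higher and 19.8% lower. Shares of all genes at an unadjusted p were not counted, so counts by that rule below have no share beside them. Of 17 APC/C genes 0 were called in either direction by edgeR's quasi-likelihood test, DESeq2 or limma-voom, although 11 were higher and 2 lower by the adjusted p (11 and 3 at an unadjusted p under 0.05), and their median log2 fold change was 0.41. CDC23 (0.79) and ANAPC4 (0.66) were higher by that rule and ANAPC16 (-0.61) lower, while CDC20 and UBE2C, which work with the complex, had 0.33 and 0.95. Of 13 cohesin genes 2 were called higher, with a median of 0.56: ESCO2 (2.23), which acetylates cohesin in S phase, and CDCA5 (1.52), which is sororin, while STAG1 had a log2 fold change of 0.85. Among 20 genes of the gamma-tubulin ring, augmin and centrioles 5 were called higher, with a median of 0.61, and those with the smallest p were CEP152 (1.33), TUBG1 (1.12) and HAUS8 (0.86, not called). The transport kinesins give a comparison inside the motor family. Of 26 listed, 20 were tested, 0 were called higher and 1 lower by edgeR's test, DESeq2 and limma-voom, with 7 higher and 3 lower by the adjusted p, the same counts at an unadjusted p under 0.05, and a median of 0.27. KIF17, a motor of cilia and dendrites, was the lower gene, from 4.71 ± 0.461 to 0.596 ± 0.113 CPM (SD, n = 3), and KIF16B (0.95) and KIF1B (0.67) were higher by the adjusted p alone.

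Some genes that restrain mitotic entry were called higher too. Of 10 inhibitors of entry and exit phosphatases 3 were called higher: WEE1 (1.64) and PKMYT1 (1.51), the kinases that put the inhibitory phosphates on CDK1, and MASTL (1.42), which restrains the opposing phosphatase and so favours entry. The list median was 0.65. Among all genes tested 5.57% were called higher and 10.1% lower, and by the adjusted p 21.0% were higher and 19.8% lower. Of the 12 genes of the DREAM and MuvB complexes, MYBL1 (1.86) and RBBP4 (1.42) were called higher, TFDP2 had a log2 fold change of 0.53, and the median was 0.48. By edgeR's adjusted p 7 were higher and 1 lower, while DESeq2 and limma-voom each called 1 gene of this list lower. E2F4 (-0.44, edgeR adjusted p = 0.0076) and E2F5 (-1.17, edgeR adjusted p = 0.0925), named after their values were seen, lay lower in every shAC007128.1 sample than in any shCtrl sample. The G1/S genes, which peak before mitosis, had the same median as the mitotic genes, 1.24, with 16 of 23 called higher and 21 by the adjusted p. MCM6 (1.95) of the replicative helicase, PCNA (1.64), the sliding clamp, and CLSPN (1.71), claspin, had the smallest p.

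**Figure D5:**
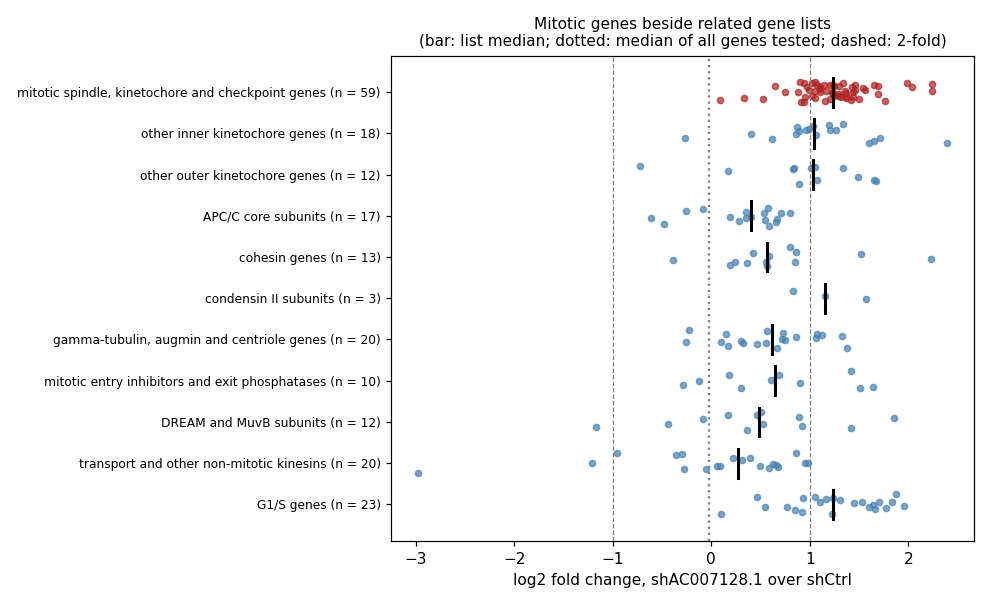
Log2 fold change (horizontal axis) of every tested gene in the mitotic list (red) and in 10 related lists (blue), 1 row per list, with a bar at the list median, a dotted line at the median of all genes and dashed lines at 2-fold. The medians run from 0.27 for the transport kinesins to 1.24 for the mitotic genes and the G1/S genes.

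Mitotic genes with and without the promoter element had close fold changes. The median log2 fold change was 1.24 for the 43 genes with TTTGAA or TTTAAA in a window and 1.36 for the 8 without, and it was 1.24 with CCAAT and 1.25 without. MYBL2, printed above with neither element in its 100 bases, had the largest value of the 59. CDC20, with both, had the smallest of those with a window. They were printed because of those values, so they add nothing to this comparison. Among genes outside the 59, 193 of 2527 with the homology element were called higher (7.64%), against 493 of 9406 without it (5.24%). The element was in 28.1% of the 686 called-higher genes outside the list that have a window and in 17.5% of the 1148 called lower. These shares are descriptions and were not tested.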

How the data were processed

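RNA-seq of KYSE150 cells with shCtrl or shAC007128.1 (3 samples each) was analysed again, starting from a table of the whole series. Its values are estimated counts per Ensembl gene, which the authors deposited as whole numbers without normalization. The study describes filtering of reads, mapping to hg38 with Tophat and FPKM values from Cufflinks. The submitters' processing notes name CASAVA 1.8, TopHat2 2.0.6 and the builds GRCh38 and mm10. The counting program, annotation release and use of strand are not given in the sources used here. Multiples of 4 are frequent among low counts (in shCtrl replicate 1, 1355 genes had 4 counts, while 761 had 3 and 993 had 5). All 6 sample columns were mapped by their labels, and 0 were left unmapped.

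Symbols and positions came from GENCODE v44 (hg38), in which 60357 of 67140 identifiers (89.9%) were found. AC007128.1 was matched through the 19-base site of its hairpin. Counts were filtered with edgeR's filterByExpr, scaled by TMM (factors 0.967 to 1.042) and tested with edgeR 4.0.16 (glmQLFit, glmQLFTest) in R 4.3.3. Each standard error was taken as the log2 fold change over the root of F. The floor of 3 counts covers counting error only. Log2 ratios of pairs used a prior count of 2 and the exact permutation test of scipy 1.17.1.

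The members, lists, pairs and motifs were chosen with earlier results of these data known. Genes named are AC007128.1, in each role group those with the smallest p and the largest and smallest log2 fold change, every member not called, both genes of each pair, and the 3 with the smallest p in each other list. Other members are given by fold change, or with levels where a sample stood apart. On simulated counts with 200 changed genes out of 18575, edgeR called 175 (87.5%) and 5 of 18375 unchanged genes, DESeq2 1.42.0 called 94% and limma-voom (limma 3.58.1) 86%. Alternatives tried were limma-voom and DESeq2 as tests, scaling by library size only or by DESeq2's factors, filtering nothing or at a minimum of 10 counts per sample, the replicate block, counts divided by 4, thinned libraries, each sample left out, a prior count of 0.5 for the pairs, and a shorter promoter window.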

Additional observations from a re-analysis of the deposited data

How the results depend on the processing

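No mitotic gene had a negative log2 fold change under any of the 15 alternative fits, and the count of 46 called higher stayed at 46 with the same genes in DESeq2, limma-voom, DESeq2's size factors, counts divided by 4 and thinned libraries. It was 41 with library size only (CCNB2, CDC25B, CENPE, KIF18A and NCAPD2 lost), 44 without a filter and 44 with a minimum of 10 counts per sample (CCNB2 and CDC25B lost in both), and 41 to 50 with 1 sample left out. The 58 higher by adjusted p alone were 56 to 58 with 1 sample left out and 58 in the other fits. The genes that lost a call lay near 2-fold and kept an adjusted p under the limit. The list median was 1.16 with library size only and 1.19 without a filter, and ran from 1.16 to 1.27 with 1 sample left out. Without a filter the median of all genes was -0.15, against -0.02, but it covers 34756 genes in place of 19254, so the 2 medians are not of the same genes. The share of calls that were higher was 35.6%, and 29.5% to 38.9% over the alternatives. The PLK1 over PLK4 ratio changed sign in 4 of the 6 fits with 1 sample left out, with values from -0.085 to 0.189 (-0.085 and -0.07 without shAC007128.1 replicates 1 and 2, and -0.01 without shCtrl replicate 1 and without shCtrl replicate 3). In the shorter promoter window, from 100 bases before the start, 56.1% of the windows held CCAAT, against 21.3% of all promoters. Under the replicate block, which adds the replicate number to the fit, the same 46 genes were called and the list median was 1.23. Between same-numbered samples, deviations from the group means correlated at 0.03, -0.03 and -0.03. Only 1 of 3 shCtrl and 1 of 3 shAC007128.1 samples correlated best with its own number. These values cannot tell whether samples of the same number shared a culture or a preparation. AC007128.1 had a log2 fold change of -0.82 with the block (edgeR adjusted p = 0.363) and -1.29 to -0.51 with 1 sample left out. Depth did not limit the values of the mitotic genes, while 3 samples a group limited the tests of related genes, whose exact p cannot go under 0.1.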
